A study of Mus musculus with 6 samples.

Results

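The posterior regulators described here are 5 mouse genes, Meox1, Meox2, Barx1, Barx2 and Mn1. They were chosen because Meox2, Barx1 and Mn1 are known to act in the posterior palate, and the paralogs Meox1 and Barx2 were added to them. They were matched by symbol to the Ensembl identifiers of the deposited counts, and all 5 of them were found among 56691 identifiers. All 5 also passed the filter on low counts, as 15673 genes did in total. RNA came from microdissected palatal shelves of C57BL/6J embryos at E14.0, and the study compared the anterior 1/3 (3 libraries) with the posterior 1/3 (3 libraries) by bulk RNA-seq. All libraries are of the same strain and stage, and the labels name no mutant allele or treatment. The study calls the libraries biologically independent, and the labels do not say which embryos each came from. In bulk tissue, fewer cells of a type and less RNA per cell cannot be told apart.

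The secondary palate grows from paired shelves of neural crest-derived mesenchyme covered by oral epithelium, and its front and back later become the bony hard palate and the muscular soft palate. Meox1 and Meox2 are homeobox transcription factors of the paraxial mesoderm that act in somites, and Meox2 also acts in limb muscle and in the palate. Barx1 is a homeobox factor of the oral mesenchyme where molars form and of the stomach wall, and Barx2 is its paralog in epithelia, cartilage and myoblasts. Mn1 encodes a large coactivator without a homeodomain, which binds other transcription regulators. Mice lacking Meox2 or Mn1 have clefts of the palate.

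The 6 libraries held 11378736 to 15172733 reverse-stranded counts, 18.95 to 23.1 times those on the other strand, and levels are given as CPM, counts scaled to a common library size by the TMM method. A count of 3 corresponded to 0.198 to 0.264 CPM. Multimapping reads were 6.12% and 5.94% of the total in posterior replicates 2 and 3, against 8.45% to 8.77% in the other 4 libraries. Unmapped reads were 4.14% and 4.65% in posterior replicates 2 and 3, against 2.71% to 3.04% in the other 4 libraries. Counts of 2 libraries of the same region differed by more than counting error: the chi-square divided by the number of genes was 3.48 to 6.29 within the anterior and 9.30 between posterior replicates 2 and 3. Between posterior replicate 1 and posterior replicates 2 and 3 it was 48.5 and 61.3. In multimapping and unmapped reads, posterior replicate 1 was nearer the anterior libraries than posterior replicates 2 and 3 were. The mesenchyme markers Prrx1 and Twist1 stood at 389.9 to 1078 CPM and 163 to 333 CPM in the 6 libraries, and all 5 markers of that list were detected in each library. Summed levels of 10 skeletal muscle markers were 10.9 to 13.8 CPM in the anterior and 582 to 1014 CPM in the posterior libraries.

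The Meox and Barx proteins bind DNA through a homeodomain. Its coding stretch is printed here for Barx1 and Barx2, whose levels are compared below, to show how far these paralogs can be told apart by sequencing reads. Sequences were read from GENCODE M21 transcripts (GRCm38), in the direction of the gene, with capitals for each base that differs from the paralog.
Barx1: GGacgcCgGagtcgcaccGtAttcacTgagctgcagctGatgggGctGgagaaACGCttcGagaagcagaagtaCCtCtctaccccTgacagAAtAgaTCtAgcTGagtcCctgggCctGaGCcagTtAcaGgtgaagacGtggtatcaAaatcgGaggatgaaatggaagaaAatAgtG
Barx2: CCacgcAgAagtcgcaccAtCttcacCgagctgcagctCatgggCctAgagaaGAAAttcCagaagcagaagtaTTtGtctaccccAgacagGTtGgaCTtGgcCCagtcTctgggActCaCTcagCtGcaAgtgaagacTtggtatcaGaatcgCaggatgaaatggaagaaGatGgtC
Each stretch is 180 bases long and runs from exon 2 into exon 4, with 92, 85 and 3 bases in the 3 exons. In Barx1 (plus strand) the longest block is chr13:48665226-48665317, and in Barx2 (minus strand) it is chr9:31858731-31858822. The paralogs shared 139 of 180 bases (77.2%) and 52 of 60 translated residues. The longest run of bases shared by the whole transcripts was 17.

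Of the 5 genes, 4 passed edgeR's quasi-likelihood test (adjusted p below 0.05) as higher in the posterior palate, and 0 as higher in the anterior, where 0 also had an unadjusted p below 0.05 or were called by DESeq2 or limma-voom. Across all 15673 genes tested, 4.87% were called higher in the posterior, 2.59% higher in the anterior, and 7.46% in either direction. Meox2 had the largest difference of the 5, followed by Barx1, Barx2 and Mn1, and Meox1 was not called. The same 4 genes had no overlap between regions, with every posterior library above every anterior one, and 14.7% of all genes tested did so too. With 3 libraries against 3, an exact two-sided permutation test cannot go below p = 0.1, which is the value for each of these 4 genes.

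**Figure D1:**
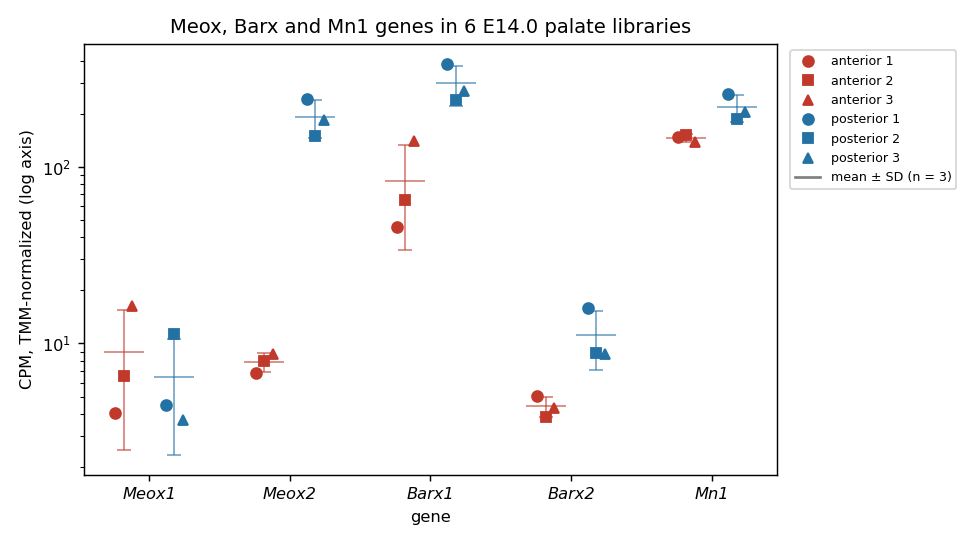
Level of the 5 genes in each library, in TMM-normalized CPM on a log axis; bars give the mean ± SD over 3 libraries. Meox2, Barx1, Barx2 and Mn1 sit higher in every posterior library (blue) than in any anterior one (red), and the regions overlap for Meox1.

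Meox2 (ENSMUSG00000036144.7; GRCm38 chr12:37108540-37179534, plus strand) was weak in the anterior palate and strong in the posterior. Its level was 6.83, 7.92 and 8.74 CPM in anterior replicates 1, 2 and 3, and 243, 149 and 184 CPM in posterior replicates 1, 2 and 3. The lowest posterior library was thus far above the highest anterior one, on 90 to 109 reads in the anterior and 2063 to 3245 in the posterior libraries. The means were 7.83 ± 0.96 CPM and 192 ± 47.4 CPM (SD, n = 3 each), a 24.5-fold difference with a 95% confidence interval of 17.3 to 34.8. The log2 fold change was 4.62 (SE 0.22, adjusted p = 0.00014 by edgeR), and 81 of 15673 genes had a larger one. The call held with each of the 6 libraries left out, with log2 fold changes of 4.42 to 4.77, and under 8 other ways of processing.

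The 250 bases before the annotated start of Meox2 are printed because this start belongs to the gene with the largest regional difference of the 5. They were taken from RefSeq (GRCm38.p6, chr12:37108290-37108539, plus strand), with capitals for GGGCGG, the core of a GC box, and for TTTATA, which reads as the TATA box TATAAA on the opposite strand.
Meox2 promoter: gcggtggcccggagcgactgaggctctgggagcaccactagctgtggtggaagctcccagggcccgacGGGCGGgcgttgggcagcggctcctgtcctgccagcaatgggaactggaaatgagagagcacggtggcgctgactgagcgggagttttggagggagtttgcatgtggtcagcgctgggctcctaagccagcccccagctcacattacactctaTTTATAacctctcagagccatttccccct
Its GC content was 62%. On both strands, GGGCGG was searched together with the TATA box TATAAA, with the CCAAT box and with the homeodomain core TAATTA. The GGGCGG began 182 bases before the start and the TATA box 29 bases before it, while neither the CCAAT box nor the homeodomain core TAATTA was found in this window. Of 32851 promoter windows of the same length, 32.7% held GGGCGG, 12.4% held the TATA box, 33.8% the CCAAT box and 4.84% the homeodomain core.

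Meox1 (ENSMUSG00000001493.10; chr11:101877510-101894374, minus strand), the paralog, showed no regional difference that passed the test. Anterior replicates 1, 2 and 3 had 4.02, 6.54 and 16.3 CPM, and posterior replicates 1, 2 and 3 had 4.49, 11.3 and 3.70 CPM. The regions overlapped, since anterior replicate 3 and posterior replicate 2 were the high libraries and the others lay close together. The means were 8.94 ± 6.47 and 6.49 ± 4.16 CPM (SD, n = 3 each). The log2 fold change was -0.45 (SE 0.59, 95% confidence interval -1.83 to 0.92, adjusted p = 0.639 by edgeR), an interval that leaves room for a difference of either sign. Without anterior replicate 3 its sign turned, at a log2 fold change of 0.29 (adjusted p = 0.771).

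Set against each other within a library, the Meox paralogs were near parity in the anterior palate and far apart in the posterior. The ratio of Meox2 to Meox1 reads was 1.69, 1.21 and 0.538 in anterior replicates 1, 2 and 3. It was 53.6, 13.2 and 49.4 in posterior replicates 1, 2 and 3, so every posterior library was above every anterior one. On the log2 scale the mean ratio was 0.05 ± 0.85 in the anterior and 5.03 ± 1.14 in the posterior libraries (SD, n = 3 each), a difference of 4.98 (exact two-sided permutation test, p = 0.1, the smallest this design allows). The log2 ratio of Barx1 to Barx2 reads was 3.17, 4.06 and 5.0 in the anterior and 4.59, 4.76 and 4.94 in the posterior libraries. These ranges overlapped, with a difference of 0.69 (exact two-sided permutation test, p = 0.4, where the smallest possible is 0.1).

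**Figure D2:**
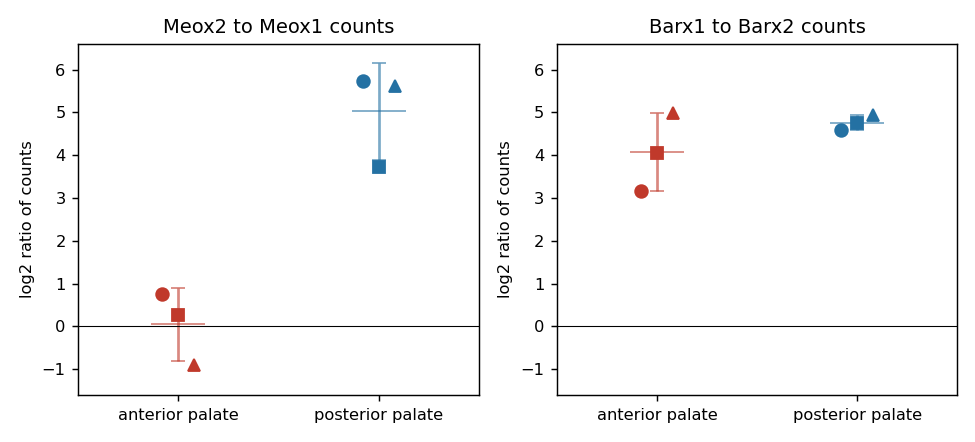
Log2 ratio of reads for Meox2 over Meox1 (left) and Barx1 over Barx2 (right) in each library; circles, squares and triangles are replicates 1, 2 and 3, and bars the mean ± SD over 3 libraries. The Meox ratio is near 0 in the anterior and between 3.72 and 5.75 in the posterior palate, and the Barx ratio overlaps between regions.

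Barx1 (ENSMUSG00000021381.5; chr13:48662998-48666507, plus strand) was the strongest of the 5 genes per length in both regions and was higher in the posterior palate. It stood at 45.5, 64.9 and 139 CPM in anterior replicates 1, 2 and 3 and at 384, 239.5 and 268 CPM in posterior replicates 1, 2 and 3. The regions did not overlap, and anterior replicate 3 came nearest to the posterior libraries. The means were 83.2 ± 49.5 and 297 ± 76.8 CPM (SD, n = 3 each), a 3.58-fold difference with a 95% confidence interval of 1.87 to 6.85. The log2 fold change was 1.84 (SE 0.40, adjusted p = 0.0348 by edgeR). The call was lost without anterior replicate 1 (log2 fold change 1.54, adjusted p = 0.0951), anterior replicate 2 (1.68, adjusted p = 0.156), posterior replicate 2 (1.97, adjusted p = 0.0811) or posterior replicate 3 (1.91, adjusted p = 0.0805).

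Some dental mesenchyme markers were high in anterior replicate 3, as Barx1 was. The sum of the list over 5 genes was 172, 261 and 458 CPM in anterior replicates 1, 2 and 3, and 200 to 251 CPM in the posterior libraries, and each of the 5 was detected in every library. Dlx2 and Tfap2b, transcription factors of the list, were at 52.1 and 117 CPM in anterior replicate 3, against at most 19.9 and 15.4 CPM in the other 5 libraries. Of the 5 markers, edgeR called 1, Lhx6, at a log2 fold change of -0.72 (adjusted p = 0.0191), and its call was lost without anterior replicate 2 (adjusted p = 0.0995), anterior replicate 3 (adjusted p = 0.0832) or posterior replicate 2 (adjusted p = 0.0819). With a term for the replicate number (replicate block) in edgeR the call was lost too (adjusted p = 0.0520). Lhx6 did not follow Barx1 among the anterior libraries, at 78.6, 102 and 98.5 CPM in replicates 1, 2 and 3. DESeq2 called 2 of the list as higher in the anterior, Lhx6 and Tfap2b. Dlx1 was higher in the posterior, as Barx1 was, with means of 34.4 and 58.1 CPM without overlap (anterior and posterior, log2 fold change 0.76). It was not called by edgeR (adjusted p = 0.136) or DESeq2 (adjusted p = 0.0503). Over anterior replicates 1, 2 and 3 Dlx1 rose as Barx1 did, at 20.3, 37.5 and 45.4 CPM. Sostdc1 rose there too, at 61.5, 89.4 and 145 CPM, but overlapped between regions and was not called by edgeR (adjusted p = 0.955). Without anterior replicate 3 the Barx1 log2 fold change was 2.43 (SE 0.28, adjusted p = 0.00816), a 5.37-fold difference. Meox1 was highest in the same library, and the part of dental mesenchyme in the levels of Barx1 and Meox1 was not tested.

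**Figure D3:**
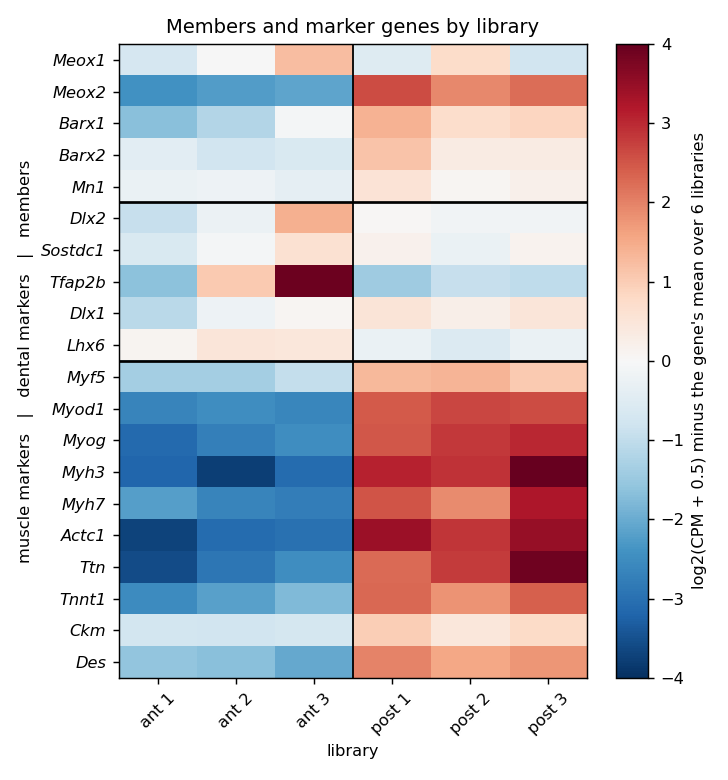
Log2(CPM + 0.5) of the 5 genes, 5 dental mesenchyme markers and 10 skeletal muscle markers in each library, as the difference from the gene's mean over 6 libraries; colours stop at 4 in either direction. Tfap2b and Dlx2 are high in anterior replicate 3, and all 10 muscle markers are high in the 3 posterior libraries.

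The bases before the Barx1 start are shown beside those of Meox2, as the other posterior homeobox gene whose promoter was at hand. The window is the 212 bases of the RefSeq promoter that lie before the GENCODE start (GRCm38.p6, chr13:48662786-48662997, plus strand), with GGGCGG and its reverse complement CCGCCC in capitals.
Barx1 promoter: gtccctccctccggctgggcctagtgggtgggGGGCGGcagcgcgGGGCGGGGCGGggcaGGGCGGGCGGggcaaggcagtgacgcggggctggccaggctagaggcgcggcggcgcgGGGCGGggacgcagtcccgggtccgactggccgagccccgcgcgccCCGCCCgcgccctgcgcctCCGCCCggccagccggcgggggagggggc
It had a GC content of 85.4% and 8 GGGCGG sites over both strands, some of them overlapping, and GGGCGG was present in 27.2% of 32851 windows of this length. No TATA box, CCAAT box or homeodomain core was found in it, motifs that 9.64%, 30.1% and 4.41% of those windows held.

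Barx2 (ENSMUSG00000032033.12; chr9:31846044-31913462, minus strand) was weak in both regions and higher in the posterior. The anterior replicates 1, 2 and 3 had 5.01, 3.85 and 4.33 CPM, and the posterior replicates 15.9, 8.81 and 8.71 CPM. Posterior replicate 1 was the highest, and the lowest posterior library was still above the highest anterior one. The means were 4.40 ± 0.58 and 11.1 ± 4.10 CPM (SD, n = 3 each), 2.53-fold apart with a 95% confidence interval of 1.61 to 3.96. The log2 fold change was 1.34 (SE 0.28, adjusted p = 0.0287 by edgeR), on 50 to 66 reads in the anterior and 122 to 212 in the posterior libraries. Leaving out anterior replicate 1 (log2 fold change 1.44, adjusted p = 0.0913), anterior replicate 2 (1.25, adjusted p = 0.136), anterior replicate 3 (1.32, adjusted p = 0.110) or posterior replicate 2 (1.48, adjusted p = 0.0521) ended the call.

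Mn1 (ENSMUSG00000070576.5; chr5:111417362-111457033, plus strand) was well expressed in both regions and had the smallest difference of the 4 genes called. Its levels were 147, 152 and 138 CPM in anterior replicates 1, 2 and 3 and 259.8, 187 and 205 CPM in posterior replicates 1, 2 and 3. The anterior libraries lay close together, and the posterior ones were spread more widely above them. The means were 146 ± 7.07 and 217 ± 38.0 CPM (SD, n = 3 each), a 1.49-fold difference with a 95% confidence interval of 1.20 to 1.85. The log2 fold change was 0.58 (SE 0.13, adjusted p = 0.0448 by edgeR), and 1991 genes had a larger one. The call was lost with limma-voom (adjusted p = 0.0506), with scaling by library size only (adjusted p = 0.0606), with at least 10 counts required in every library (adjusted p = 0.0527) and with a replicate block (adjusted p = 0.0795). It was also lost without anterior replicate 1 (log2 fold change 0.58, adjusted p = 0.174), anterior replicate 2 (0.61, adjusted p = 0.157), anterior replicate 3 (0.54, adjusted p = 0.171), posterior replicate 2 (0.68, adjusted p = 0.0521) or posterior replicate 3 (0.62, adjusted p = 0.0879).

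Posterior replicate 1, which differed from posterior replicates 2 and 3 as given above, had the highest level of the posterior libraries for Meox2, Barx1, Barx2 and Mn1. A fit with a term for posterior replicates 2 and 3, which takes the regional difference from posterior replicate 1 and the 3 anterior libraries, gave log2 fold changes of 4.96, 2.22, 1.85 and 0.83 for these genes. That fit cannot measure the spread of a single posterior library, so its values are given here as sizes without a call. Without posterior replicate 1 the log2 fold changes were 4.42, 1.62, 1.00 and 0.43, and all 4 were called. The posterior libraries left, replicates 2 and 3, are those with fewer multimapping reads, so region and this library difference cannot be told apart. Under this setting 7119 of 15349 genes tested were called, or 46.4%.

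**Figure D4:**
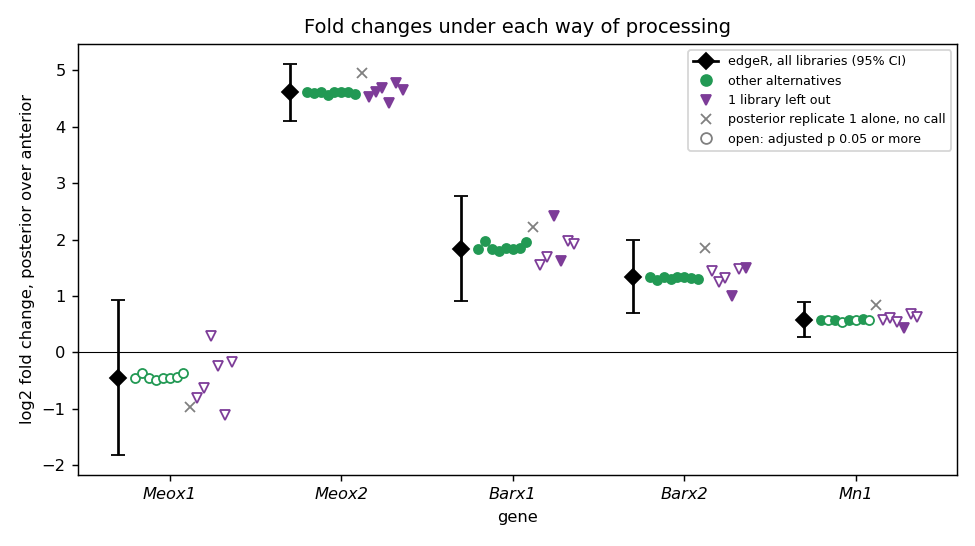
Log2 fold change (posterior over anterior) of the 5 genes in edgeR's fit with its 95% confidence interval (black), under 8 other ways of processing (green) and with 1 library left out (purple); filled symbols have an adjusted p below 0.05, and grey crosses give the fit that rests on posterior replicate 1 alone for the posterior, without a call. Of these 14 alternatives, Meox2 is filled in 14, Barx1 and Barx2 in 10 each, Mn1 in 5 and Meox1 in 0.

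Levels were compared between the genes as CPM per kilobase of exon. In the anterior palate the order was Barx1 (59.5 ± 35.4 CPM per kilobase), Mn1 (21 ± 1.02), Meox1 (4.01 ± 2.90), Meox2 (3.32 ± 0.41) and Barx2 (2.23 ± 0.29), each as mean ± SD over 3 libraries. Meox1 and Meox2 were neighbours whose libraries overlapped. In the posterior palate it was Barx1 (213 ± 54.9), Meox2 (81.4 ± 20.1), Mn1 (31.3 ± 5.48), Barx2 (5.66 ± 2.09) and Meox1 (2.91 ± 1.87), with Barx2 and Meox1 overlapping. Meox2 thus moved from the fourth place to the second, or from the percentile 39.9 to the percentile 96.9 of the levels per kilobase of all genes tested.

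Partners, targets and inducers known for these factors were followed as a list of 24 genes, 21 of which passed the filter. Of the 21, 7 were higher in the posterior palate, 1 was higher in the anterior and 13 were not called, with a median log2 fold change of 0.29 against -0.0040 over all genes tested. The shares called over all genes tested were 4.87% for the posterior and 2.59% for the anterior. Of the 7, Nkx3-2, Myod1 and Pax7 reached 10 counts in every posterior library but not in every anterior one, so they entered the test through the region where they are high. With 10 counts required in every library, 4 genes were higher in the posterior and 1 in the anterior, beside 528 and 315 of all 14029 genes tested. Uncx, Cdkn2a and Fgf8 had too few reads for the test, with at most 1, 23 and 2 counts in a library.

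Tbx22 and Ccnd2 act downstream of Mn1 in the palate, and edgeR called 1 of them. Tbx22, a T-box factor whose loss gives a cleft, was at 1.52, 1.67 and 1.3 CPM in the anterior libraries and at 31.5, 31.2 and 45.4 CPM in the posterior ones. No library of 1 region came near the other, and the log2 fold change was 4.58 (SE 0.22, adjusted p = 0.00014), close in size to that of Meox2. Ccnd2, a cyclin of G1 phase, was at 1180, 1149 and 1363 CPM in the anterior and 978, 859.8 and 894 CPM in the posterior libraries, and its log2 fold change of -0.43 (SE 0.12) was not called by edgeR (adjusted p = 0.0741) but was by DESeq2 (adjusted p = 0.0043). The anterior libraries of Ccnd2 all lay above the posterior ones. The Mn1 partners Ep300, Ncoa3, Pknox1 and Zbtb24, which are cofactors and DNA-binding proteins, were not called, with log2 fold changes from 0.10 (Pknox1, adjusted p = 0.569) to 0.56 (Ep300, adjusted p = 0.204). Ep300 was at 117 and 127 CPM in posterior replicates 2 and 3 and at 61.8 CPM in posterior replicate 1, below every anterior library. With the term for posterior replicates 2 and 3, the direction turned for Ep300 (-0.16) and for Ncoa3 (from 0.21 to -0.17).

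The paired-box partners of the Meox proteins parted by region. Pax1, a sclerotome factor, had 0.99, 1.89 and 2.16 CPM in the anterior and 11.8, 11.4 and 12.7 CPM in the posterior libraries, with a log2 fold change of 2.83 (SE 0.27, adjusted p = 0.0011). Pax3, a factor of neural crest and muscle precursors, was the 1 gene of the list that edgeR called higher in the anterior, at 28.2, 29.1 and 32.9 CPM against 7.34, 2.75 and 4.59 CPM (log2 fold change -2.62, SE 0.31, adjusted p = 0.0029). With the term for posterior replicates 2 and 3 its log2 fold change was -2.03. Pax9, which acts in palate and sclerotome, was not called at 0.54 (adjusted p = 0.228). Of the sclerotome targets of Meox1, Tbx18 was higher in the posterior by 1.10 on the log2 scale (SE 0.17, adjusted p = 0.0089), and its call was lost without anterior replicate 1 (adjusted p = 0.0544). Nkx3-2, the other target tested, had 5 reads in all anterior and 71 in all posterior libraries, a 13.1-fold difference with an exact counting interval of 5.35 to 41.5. The Meox2 target Cdkn1a, a cell-cycle inhibitor, was not called at -0.07 (adjusted p = 0.801), which turned to 0.02 with that term.

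Partners of Barx2 included muscle and cartilage genes that were high in the posterior palate. Myod1, a master regulator of myogenesis, had 1, 2 and 1 reads in the anterior and 257, 307 and 315 in the posterior libraries, which is 202-fold apart with an exact counting interval of 78.8 to 745. Pax7, a factor of muscle precursors, had 16, 4 and 9 reads in the anterior and 64, 68 and 82 in the posterior libraries, with means of 0.76 ± 0.46 and 5.11 ± 0.45 CPM (SD, n = 3 each). Col2a1, the main cartilage collagen, rose from 85.3 ± 16.9 to 507 ± 95.2 CPM (log2 fold change 2.57, adjusted p = 0.00052). The adhesion genes Ncam1 and L1cam were not called at -0.31 (adjusted p = 0.294) and 1.84 (adjusted p = 0.207), and L1cam had 452 reads in posterior replicate 2 against 43 to 80 in the other 5 libraries. With the term for posterior replicates 2 and 3 these values were -0.75 for Ncam1 and -0.26 for L1cam. Around Barx1, its repressor Bmp4 (0.25, adjusted p = 0.491) and the Wnt antagonists Sfrp1 (-0.02, adjusted p = 0.932) and Sfrp2 (0.29, adjusted p = 0.188) were not called either.

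**Figure D5:**
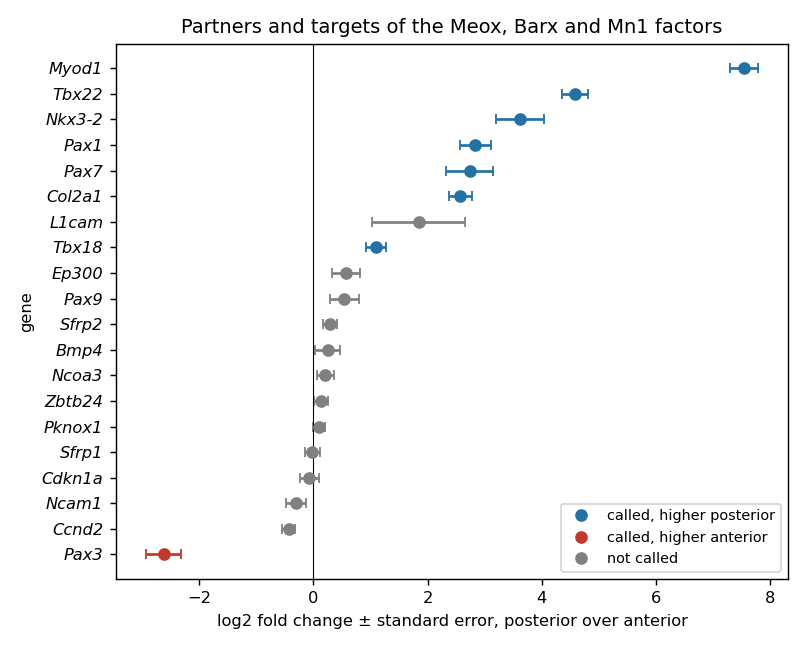
Log2 fold change (posterior over anterior) ± standard error of 20 partner and target genes tested by edgeR; blue and red mark genes with an adjusted p below 0.05. Of the genes, 7 are blue, from Tbx18 at 1.10 to Myod1, Pax3 alone is red at -2.62, and 12 are grey.

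Skeletal muscle markers were high in the posterior libraries, where the 4 called members were high too. Of the 10 muscle markers, 6 (Myf5, Myod1, Myog, Myh7, Ttn and Ckm) reached 10 counts in every posterior library but not in every anterior one, so they entered the test through the region where they are high. The other 4, Myh3, Actc1, Tnnt1 and Des, reached it in every library and were called higher in the posterior. The sum of the list was 10.9, 11.9 and 13.8 CPM in anterior replicates 1, 2 and 3 and 692, 582 and 1014 CPM in posterior replicates 1, 2 and 3. Myf5 and Myod1, which define the lineage, had 1 to 3 reads in each anterior library. Of the 4 chondrocyte markers tested 2 were called higher in the posterior, Col2a1 and, in 3 of 6 fits with a library left out, Col9a1, and the sum of the list was 128 to 171 CPM in the anterior and 516 to 659 CPM in the posterior libraries, of which Col2a1 alone had 398 to 573 CPM. Sox9, the regulator that defines this lineage, overlapped between regions and was not called (log2 fold change 0.35, adjusted p = 0.470). The part of muscle and cartilage in the levels of the 5 genes was not tested.

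Markers of most other tissues were not called. Of 8 epithelial markers, 2 were higher in the anterior, among them Trp63 (a call kept in 3 of 6 fits with a library left out), with sums of 1245 to 1392 CPM in the anterior and 848 to 1443 CPM in the posterior libraries. None of the endothelial (7 tested), osteoblast (4), myeloid (5), glial (4), neuronal (3) or erythroid (4) markers was called by edgeR or limma-voom. At an unadjusted p below 0.05 there were 2 endothelial, 3 osteoblast, 3 myeloid, 0 glial, 1 neuronal and 0 erythroid markers, and DESeq2 called 1 endothelial marker (higher in the posterior) and 3 osteoblast markers (higher in the anterior). The defining markers of these tissues, Krt14 and Krt5 (epithelium), Cdh5 and Cldn5 (endothelium), Runx2 and Sp7 (osteoblasts), Sox9 and Col2a1 (cartilage), Lyz2 and Csf1r (myeloid cells), Sox10 (glia), Tubb3 and Stmn2 (neurons) and Hba-a1 and Hbb-bs (red cells), were detected in all 6 libraries. Among mesenchyme markers Prrx1 was higher in the anterior (log2 fold change -1.34, adjusted p = 0.0006) and Twist1 in the posterior (0.74, adjusted p = 0.0129), a call lost without anterior replicate 1 (adjusted p = 0.0843) or anterior replicate 2 (adjusted p = 0.0822). Pdgfra was also higher in the posterior, a call kept in 1 of 6 fits with a library left out and lost with limma-voom (adjusted p = 0.0540). The neuronal sum was 224 CPM in posterior replicate 2 and 16 to 38.5 CPM in the other 5 libraries, and the osteoblast sum was 1959 to 3551 CPM in the anterior and 291 to 1816 CPM in the posterior libraries.

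Meox and Barx belong to the ANTP class of homeobox genes, and 56 other genes of this class outside the Hox clusters were listed beside them. Of these, 15 passed the filter, 4 were higher in the posterior palate, 5 were higher in the anterior and 6 were not called, with a median log2 fold change of -0.66. Over all genes tested, 4.87% were called higher in the posterior and 2.59% in the anterior. Of the 4, all but Msx2 reached 10 counts only in posterior libraries, and so entered the test through the region where they are high, as Dlx4 did in the anterior. En1 reached 10 counts in all anterior but only 2 of the posterior libraries, and was not tested when every library had to reach them. With 10 counts required in every library, 1 gene was higher in the posterior and 3 were higher in the anterior, beside 528 and 315 of all 14029 genes tested. Without posterior replicate 1 these were 1 and 8, beside 3877 and 3242 of all 15349 genes tested. Dbx1, Emx2 and Nkx3-2 were not tested under either setting.

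The relatives higher in the posterior palate were Dbx1, Emx2, Nkx3-2 and Msx2. Msx2, a target of BMP signals, stood at 4.48 to 7.27 CPM in the anterior and 17.7 to 27.2 CPM in the posterior libraries (log2 fold change 2.05, SE 0.25, adjusted p = 0.0032). Emx2 had 15 reads in all anterior and 247 in all posterior libraries, 15.2-fold apart with an exact counting interval of 9.02 to 27.5. Dbx1 had 0 reads in the anterior and 49 in the posterior libraries, at least 15.0-fold higher when 3 counts are taken as the floor over the anterior libraries. With any posterior library left out, Dbx1, Emx2, Nkx3-2 and Myod1 no longer passed the filter and were not tested.

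The relatives higher in the anterior were Msx1, En1, Dlx4, Dlx3 and Dlx5. Msx1, a mesenchymal factor of tooth and anterior palate, was at 146, 184 and 282 CPM in the anterior and 1.05, 1.37 and 1.03 CPM in the posterior libraries (log2 fold change -7.46, SE 0.34, adjusted p = 0.00012), an opposite pattern to that of Meox2. En1 was at 17.3 to 22.2 and 0.15 to 2.06 CPM (-4.19, or -6.98 with the term for posterior replicates 2 and 3), and Dlx3 at 56.5 to 73.9 and 7.01 to 15.7 CPM (-2.64, adjusted p = 0.0021). Dlx5 was called at -1.68 (adjusted p = 0.0160), and its call was lost without anterior replicate 1 (adjusted p = 0.0683), anterior replicate 2 (adjusted p = 0.0718) or posterior replicate 2 (adjusted p = 0.0689). Dlx4 was weak, with 78 reads in all anterior and 8 in all posterior libraries, and kept its call in 1 of 6 fits with a library left out (it was not tested in 3 of the others), and lost it with limma-voom (adjusted p = 0.0524).

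The nearest protein-coding genes were followed on each side of each member, 10 in all. Of these, 8 were tested and 0 were called higher in the posterior by edgeR, with 0 at an unadjusted p below 0.05 and 0 by DESeq2 or limma-voom. In the anterior, edgeR and limma-voom called 2 as higher and DESeq2 3, with 3 at an unadjusted p below 0.05 in edgeR. Sost, 68.1 kb from Meox1, and Tmem45b, 382 kb from Barx2, were the 2 called by edgeR, with log2 fold changes (posterior over anterior) of -3.03 (adjusted p = 0.0168) and -1.79 (adjusted p = 0.0234) on at most 41 and 21 reads in a library, and these calls held in 2 and 1 of the 6 fits with a library left out. Both reached 10 counts only in anterior libraries, so they entered the test through the region where they are high and were not tested without any 1 of the anterior libraries. With the term for posterior replicates 2 and 3 they were at -4.85 and -1.35. Etv4, an ETS factor induced by FGF signals and 92.1 kb from Meox1, had 165, 217 and 595 reads in the anterior and 71, 108 and 67 in the posterior libraries, and its log2 fold change of -2.17 was not called by edgeR (adjusted p = 0.0590) or limma-voom (adjusted p = 0.120) but was by DESeq2 (adjusted p = 0.0002). Without anterior replicate 3 it was -1.26 (adjusted p = 0.0592 by edgeR). The neighbours of Meox2 (Ispd), Barx1 (Ptpdc1 and Phf2) and Mn1 (Pitpnb), and Arhgap32 beside Barx2, had log2 fold changes from -0.14 to 0.30 and were not called. With the term for posterior replicates 2 and 3 those of Ispd (0.09), Ptpdc1 (-0.13), Arhgap32 (-0.22) and Pitpnb (0.02) had the opposite sign. Agmo, on the other side of Meox2, had 3 to 11 reads in a library, and Gm26897 beside Mn1 had none.

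Annotations that overlap the 5 genes took few reads. Gm11551 (antisense to Meox1), Gm48617 (same strand as Meox2), Gm31497 (antisense to Barx2) and Gm43119 (same strand as Mn1) had at most 7 reads in any library. Reads on the other strand were at most 175 in a library for Barx1 and at most 45 for the other members.

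Over the 6 libraries, the log2 levels of Meox2 and Barx1 had a Pearson correlation of 0.91, Meox2 and Barx2 one of 0.92, Meox2 and Mn1 one of 0.92, Barx1 and Barx2 one of 0.85, Barx1 and Mn1 one of 0.82, and Barx2 and Mn1 one of 0.97. Meox1 had correlations from -0.46 (with Mn1) to 0.03 (with Barx1). The 6 points share the regions and the libraries, and these values are a description only. Among 11872 genes with a mean of at least 5 CPM, those most like Meox2 were Tnnc2 (0.9996), Actc1 (0.998) and ENSMUSG00000120266.1 (0.998), of which Tnnc2 and Actc1 encode muscle proteins. In the anterior libraries they stood at 0.30 to 0.52, 1.21 to 2.34 and 0 to 0.08 CPM, so they reached that mean only through the posterior libraries. Most like Barx1 were Dbn1, Gper1 and Rnf152, each at 0.99, and most like Barx2 were Slc20a1 (0.99), Rbms3 (0.98) and Lmo4 (0.98). Cnpy4, Enho and Fancf were most like Mn1, each at 0.99, and Zbtb14 (0.98), Slc35e2 (0.96) and Apbb1 (0.96) were most like Meox1.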

How the data were processed

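Bulk RNA-seq libraries of the anterior and posterior palate (3 each) were analysed. The authors deposited, for each library, unnormalized read counts per Ensembl gene, unstranded and per strand, in the layout of STAR's gene counts, while the processing notes name HISAT2, StringTie, DESeq2 1.30.1 and mm10. The annotation version is not given in the sources used here. The reverse-stranded counts were used. Symbols, positions, exon lengths and coding sequence came from GENCODE M21 (52073 identifiers matched) and promoters from RefSeq (GRCm38.p6), of which those of Meox2 and Barx1 were used.

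Tests were run on genes reaching 10 counts in 3 or more libraries, by edgeR 4.0.16 (TMM, quasi-likelihood, Benjamini-Hochberg over all genes tested, threshold 0.05). CPM are TMM-normalized, and SE is the log2 fold change over the root of F. Ratios of reads used a prior count of 0.5. Intervals on pooled reads are exact binomial (95%) and, like floors of 3 counts, cover counting error only. The code was tested on simulated data. The members, gene lists and tests were chosen with earlier results of these data known. Named genes were the members, the partners tested, up to 5 called homeobox genes per direction with at least 1 CPM, the 3 genes most like each member, the nearest neighbours and the first 2 markers of each list; Lhx6, Tfap2b, Dlx1, Trp63, Col9a1, Pdgfra and the muscle markers beyond the first 2 were chosen after their values were seen. Alternatives were DESeq2 1.42.0, limma-voom (limma 3.58.1), RLE, library size only, 2 other count filters, unstranded counts, a replicate block, a library-group term (posterior replicates 2 and 3 against the rest) and leaving out each library. The results of some genes of the lists, and 1 sequence, are not reported here.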

Additional observations from a re-analysis of the deposited data

How the results depend on the processing

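The precision is limited by the 3 libraries per region. The number of genes called, 1169, was 1978 with DESeq2 and 2162 without the low-count filter, and 498 to 7119 with 1 library left out (highest without posterior replicate 1). Partner and target genes called fell from 8 to 5 with a minimum of 10 counts in each library, and were 6 to 11 with 1 library left out. Other homeobox genes called, 9, were 15 without the filter, 4 when every library had to reach 10 counts, and 4 to 9 with 1 library left out, with 4 without posterior replicate 2 and 5 without posterior replicate 3. Meox1 turned to 0.29 without anterior replicate 3, over a range of -1.12 to 0.29. With 1 library left out the log2 fold change ranged from 1.54 to 2.43 for Barx1, 1.00 to 1.49 for Barx2 and 0.43 to 0.68 for Mn1, and Meox2 kept its call throughout (4.42 to 4.77). Mn1 lost its call with limma-voom (0.56), library size only (0.53), a minimum of 10 counts in each library (0.57) and the replicate block (0.56, adjusted p = 0.0795). The cause of these shifts was not tested, except that fewer libraries or genes entered some fits.

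Libraries with the same number did not deviate together (correlations of -0.06, 0.02 and 0.03 for numbers 1, 2 and 3), so the replicate block stands on a shared number only. With this block the log2 fold changes were 4.59 for Meox2, 1.96 for Barx1 and 1.3 for Barx2, and these 3 genes were still called, while Lhx6, Pdgfra, Dlx4, Sost and Tmem45b lost their calls (adjusted p of 0.0501 for Sost to 0.0778 for Tmem45b). The Meox2 to Meox1 difference ranged from 4.51 to 5.64 and that of Barx1 to Barx2 from 0.24 to 1.15 over their alternatives.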
